A study of Mus musculus with 3 samples.

Results

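Scx, Mkx, Tnmd, Sox9, Acan and Chad are used as identity genes of tendon, ligament and cartilage, and their levels and joint detection were followed in Pthrp-mCherry+ cells of mouse molars. The 6 genes were taken by name and joined by identifier, and all 6 were found among the 21446 genes that the 3 libraries share. Cells came from mandibular molars of Pthrp-mCherry knock-in mice, were pooled, dissociated with Liberase TM and sorted for the reporter. P15, P25 and 8 weeks were profiled with 1 library of 10x Chromium 3' RNA sequencing each. All libraries share the reporter allele, none comes from mice without it, and the number of mice behind each pool is not given in the sources used here. The reporter follows the gene for parathyroid hormone-related protein, Pthlh, and the labels name the sorted cells as PTHrP-mCherry+ cementoblasts and precursors. In mesenchymal cells, Pthlh stood at 158, 214 and 234 CPM (UMIs scaled to a common total per class and library) at P15, P25 and 8 weeks, and Bglap, a matrix gene of mineralizing cells, at 997, 2999 and 4401 CPM.

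Scleraxis (Scx) and Mohawk (Mkx) are transcription factors of the tendon and ligament lineage, and tenomodulin (Tnmd) is a membrane protein with an extracellular BRICHOS domain that appears as these tissues mature. Sox9 is the transcription factor that starts and maintains the cartilage programme, aggrecan (Acan) is the large proteoglycan of cartilage matrix, and chondroadherin (Chad) is a small leucine-rich matrix protein that cells bind. In the tooth, the periodontal ligament runs between the cementum of the root and the alveolar bone, and its collagen fibres are anchored in both, so ligament, mineralizing and progenitor cells lie side by side.

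In GRCm38, Scx lies on chr15:76457452-76459458, Tnmd on chrX:133850980-133865577, Sox9 on chr11:112782224-112787760, Acan on chr7:79053483-79115099 and Chad on chr11:94565047-94569127, all on the plus strand. RefSeq promoter sequence of GRCm38.p6 was found for 3 of the 6 genes. The 250 bases before the start are shown for these 3 because Scx binds E-boxes. The levels of Scx in Acan-positive and Chad-positive cells are described further on, and binding of Scx to these windows was not tested. Capitals mark an E-box, CANNTG on either strand. Windows are counted from the start that RefSeq gives, which for Tnmd and Acan is not the gene start given above from the GENCODE annotation.
Tnmd, chrX:133850758-133851007, plus strand: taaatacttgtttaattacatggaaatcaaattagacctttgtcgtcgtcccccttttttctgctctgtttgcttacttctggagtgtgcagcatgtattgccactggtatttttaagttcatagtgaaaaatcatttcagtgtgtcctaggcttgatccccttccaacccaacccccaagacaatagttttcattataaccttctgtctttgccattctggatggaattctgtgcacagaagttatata
Acan, chr7:79052976-79053225, plus strand: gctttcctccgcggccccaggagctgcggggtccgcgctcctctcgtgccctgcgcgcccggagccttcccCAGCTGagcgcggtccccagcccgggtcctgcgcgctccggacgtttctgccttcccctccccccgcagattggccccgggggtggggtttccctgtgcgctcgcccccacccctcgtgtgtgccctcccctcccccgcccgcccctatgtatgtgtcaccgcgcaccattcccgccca
Chad, chr11:94564797-94565046, plus strand: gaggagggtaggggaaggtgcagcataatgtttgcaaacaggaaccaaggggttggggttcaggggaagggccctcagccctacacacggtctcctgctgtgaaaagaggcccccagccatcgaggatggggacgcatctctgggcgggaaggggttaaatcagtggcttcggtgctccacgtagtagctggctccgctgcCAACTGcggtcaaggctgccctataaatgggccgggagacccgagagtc

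The Acan window held 1 E-box, CAGCTG, that begins 179 bases before the RefSeq start, and the Chad window 1, CAACTG, that begins 49 bases before it. The Tnmd window held none. An E-box was present in 66.2% of the 32851 mouse promoter windows of this length, so its presence does not set Acan and Chad apart. TATAAA was found in the Chad window alone of the 3, beginning 28 bases before the start, and in 12.4% of all windows. AACAAT, the core that Sox proteins bind, was in none of the 3 and in 9.42% of all windows. The windows differed in base composition, with 38.4% G and C in Tnmd, 74.4% in Acan and 60.4% in Chad. These are matches of letters and not binding sites.

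The libraries held 12926, 8971 and 5192 cells (P15, P25, 8 weeks), with 188157997, 169712592 and 46234378 UMIs, so the 8-week library was the shallowest. Cells without a UMI of Ptprc, a leukocyte gene, and of Epcam, an epithelial gene, were taken as mesenchymal, which left 10667, 7879 and 5061 cells with a median of 14254, 15256 and 8611 UMIs. Libraries shared between 13 and 26 barcodes. Each mesenchymal cell was put into the first class whose gate it passed, in the order of Ifitm5 (at least 5 UMIs), a membrane protein gene of mineralizing cells, Ibsp (20), which encodes bone sialoprotein, Rgs5 (10), a gene of mural cells, Pappa2 (3), which encodes a metalloproteinase, and Hand2 (2), a transcription factor. Cells that passed none are called ungated. The classes held 489, 716 and 204 Ifitm5 cells at P15, P25 and 8 weeks, 1362, 1766 and 1225 Ibsp cells, and 216, 329 and 232 Hand2 cells, and the ungated class held 7923, 5031 and 3385. Pappa2 cells numbered 489, 24 and 11, and Rgs5 cells 188, 13 and 4. A class with fewer than 20 cells in a library was not summed, so Rgs5 was read at P15 only and Pappa2 not at 8 weeks. A class is a range of UMIs of 1 gene and not a cell type. In such sums, fewer cells that use a gene and less RNA per cell cannot be told apart.

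UMIs were summed by library and class, and the 15 sums were compared with edgeR's quasi-likelihood test, with the library as a block, which asks whether a class differs from the ungated cells of its own library. A gene was called at a Benjamini-Hochberg adjusted p under 0.05 over all genes tested. All 6 genes passed the low-count filter in every comparison. Nothing in the labels makes the 3 libraries replicates of a condition. Each p thus measures a spread over time points, which edgeR estimates for a gene in part from the other genes. The Ifitm5, Ibsp and Hand2 classes have a sum at all 3, Pappa2 at 2 and Rgs5 at 1, and for Rgs5 the test takes the spread from the other classes, with the lone sum assumed to vary like them. Log2 fold changes are given with their standard error.

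**Figure D1:**
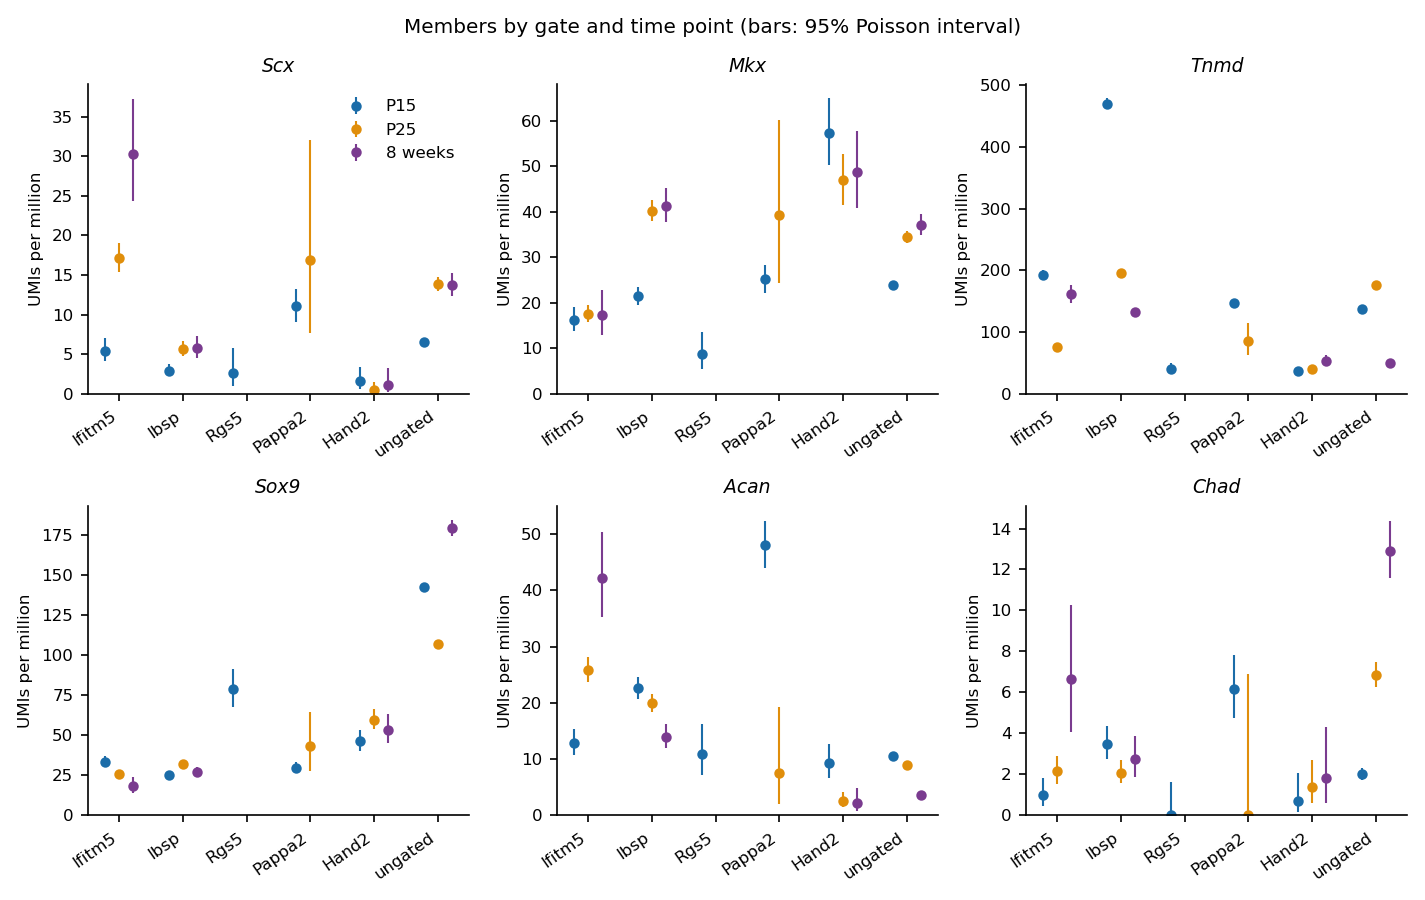
Level of each gene (CPM, y axis) in the gated and ungated classes (x axis) of each library (colours), with 95% Poisson intervals that cover counting error only. Among the classes of at least 20 cells shown, Sox9 was highest in ungated cells of every library (142, 107 and 179 CPM), whereas Tnmd was highest in Ibsp cells at P15 (469.5 CPM).

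Sox9 was higher in ungated cells than in the gated classes of at least 20 cells. In ungated cells, Sox9 stood at 142, 107 and 179 CPM at P15, P25 and 8 weeks. Ibsp cells held 25.4, 31.9 and 26.9 CPM of Sox9, and Ifitm5 cells 33.4, 25.9 and 18.3 CPM. The 6 values of gated cells lay below all 3 of ungated cells. Hand2 cells were between them, with 46.3, 59.6 and 53.4 CPM of Sox9. Pappa2 cells held 29.8 CPM at P15 and 43.1 CPM at P25, and Rgs5 cells 78.6 CPM at P15. The 13 Rgs5 cells at P25, too few to be summed, held 161 CPM (interval 116.5 to 216.9), above ungated cells. Cells with at least 2 Ptprc UMIs, taken as background, held 24.3 CPM of Sox9 at P15 (interval 21.6 to 27.3). At P25 they held 27.6 CPM (22.8 to 33.1). The values of Ibsp cells at P15 and P25 and of Ifitm5 cells at P25 lay within these intervals. There, Sox9 was not separated from background.

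Against ungated cells, Sox9 was lower in Ibsp cells (log2 fold change -2.28 ± 0.21, adjusted p = 0.000242 by edgeR) and in Ifitm5 cells (-2.16 ± 0.22, adjusted p = 0.00015 by edgeR), and both calls held with any 1 library left out. Ibsp and Ifitm5 cells were not told apart by Sox9, whose values overlapped. In Hand2 cells, the difference was smaller (-1.43 ± 0.22, adjusted p = 0.00364 by edgeR), and without the P25 library it stood at -1.69 with an adjusted p of 0.095 from edgeR. In Pappa2 cells, Sox9 was also lower (-2.06 ± 0.29, adjusted p = 0.0109 by edgeR), but the adjusted p from edgeR was 0.348 without P15 and 0.174 without P25, each of which leaves 1 Pappa2 sum. Sox9 was thus called lower in 4 of 5 gates. Of all genes tested, edgeR called 18.5% between Ibsp and ungated cells, 30.2% for Ifitm5, 11.6% for Hand2, 2.09% for Pappa2 and 6.0% for Rgs5. A call was thus common in the Ifitm5 gate. Since the gates differ in their number of sums, these shares do not rank the calls of different gates. The epithelial genes Epcam, Krt14, Krt5 and Cdh1 were also highest in sum in ungated cells (693, 779.5 and 231 CPM, against 270.4, 127 and 45.4 CPM in Ibsp cells), with Epcam at 0 by the choice of cells. In cells that also lacked UMIs of Pecam1, Cdh5, Krt14 and Krt5, the Sox9 difference was -2.50 in Ibsp and -2.60 in Ifitm5 cells (adjusted p = 0.000102 and 0.000163 by edgeR). The dissociation stress genes Fos, Jun, Hspa1a and Hspa1b summed to 6141, 8203 and 12987 CPM in ungated cells, against 6329, 5343 and 4833 CPM in Ibsp cells and 4295, 5396 and 5079 CPM in Hand2 cells, and their part in the Sox9 difference was not tested.

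Cells with under 5 Ifitm5 UMIs were also binned by their Ibsp UMIs, a division made after the data were seen. At P15, Sox9 was 133 CPM in cells with 0 Ibsp UMIs and 16.2 CPM in cells with 300 or more. The same ends were 113 and 21.1 CPM (P25) and 189.9 and 13.7 CPM (8 weeks). For Tnmd the order of these ends was the other way, with 111 and 537 CPM at P15 and 45.2 and 201 CPM at 8 weeks. At P25, Tnmd was 177 CPM in cells with 0 Ibsp UMIs, 132 CPM in those with 20 to 99 and 268 CPM in those with 300 or more, and so had no single direction. The bins are not replicates and were not tested.

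**Figure D2:**
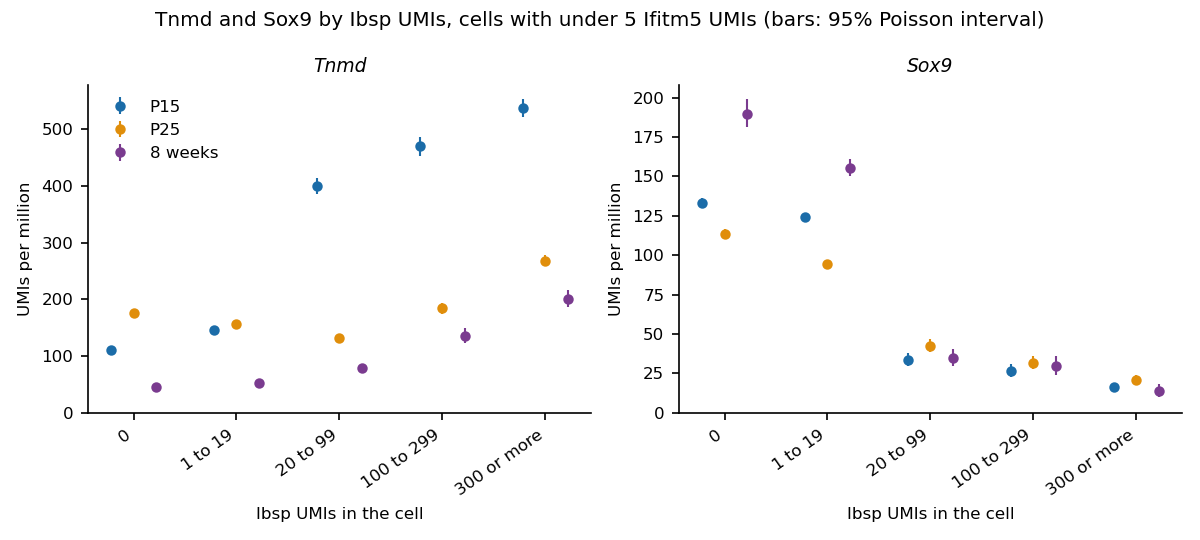
Tnmd (left) and Sox9 (right) in CPM (y axis) by the number of Ibsp UMIs in the cell (x axis), for cells with under 5 Ifitm5 UMIs in each library (colours), with 95% Poisson intervals. Sox9 is 16.2 CPM at P15 in the highest bin against 133 CPM in the lowest, and Tnmd is 537 against 111 CPM.

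Scx, the first tendon factor, was scarce in ungated, Ibsp and Hand2 cells. Ungated cells held 6.59, 13.8 and 13.8 CPM at P15, P25 and 8 weeks. Ibsp cells held 2.92, 5.66 and 5.75 CPM of Scx. The P15 value was not separated from the background of cells with at least 2 Ptprc UMIs (2.66 CPM, interval 1.80 to 3.77). Each Ibsp value lay below the ungated value of its own library, and Scx was lower in Ibsp cells by 1.18 ± 0.35 on the log2 scale (log2 fold change -1.18, adjusted p = 0.041 by edgeR). Hand2 cells held almost none, with 7 UMIs of Scx (1.66 CPM) at P15, 3 UMIs (0.511 CPM) at P25 and 3 UMIs (1.11 CPM) at 8 weeks. In the Hand2 gate, the log2 fold change of Scx was -3.40 ± 0.54 (adjusted p = 0.00431 by edgeR), and without the P25 library the adjusted p was 0.21. In Ibsp cells, the adjusted p from edgeR was 0.304 without P25 and 0.182 without 8 weeks, at log2 fold changes of -1.15 and -1.17.

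Ifitm5 cells carried more Scx than Ibsp cells, with 5.46, 17.1 and 30.3 CPM at P15, P25 and 8 weeks. Scx was the lower in Ibsp cells of both (log2 fold change -1.91 ± 0.37, adjusted p = 0.0089 by edgeR), in 3 of 3 libraries, though the adjusted p from edgeR was 0.259 without P25 and 0.119 without 8 weeks. Mkx was the other of the 6 genes called between Ibsp and Ifitm5 cells, so 2 of 6 were, where edgeR called 13.1% of all genes.

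Epithelial transcripts were measured beside Scx because cells with at least 2 Epcam UMIs, which are outside the mesenchymal set, held 15.6, 6.51 and 8.11 CPM of Scx at P15, P25 and 8 weeks. At P15 this was above every mesenchymal class. Requiring that mesenchymal cells also lack UMIs of Pecam1, Cdh5, Krt14 and Krt5 left 1345 of 10667 cells (P15), 1838 of 7879 (P25) and 3824 of 5061 (8 weeks), and moved Scx in them from 6.07 to 3.06 CPM at P15, from 11.9 to 10.1 CPM at P25 and from 11.9 to 12.6 CPM at 8 weeks. The part of epithelial RNA in the Scx level at P15 was not tested. The calls of Scx in Hand2 cells (log2 fold change -3.88, adjusted p = 0.00176 by edgeR) and in Ibsp cells (-1.15, adjusted p = 0.00838 by edgeR) were present in these cells too, the former without a P15 sum, since too few Hand2 cells remained there.

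Mkx, the second tendon and ligament factor, lies on chromosome 18 of GRCm38 from 6934518 to 7004780 on the minus strand. Its levels lay between 8.78 and 57.2 CPM over the 15 sums of class and library. Ungated cells held 23.9, 34.5 and 37.1 CPM of Mkx at P15, P25 and 8 weeks, and Ibsp cells 21.4, 40.2 and 41.3 CPM. Hand2 cells held the most, with 57.2, 46.9 and 48.6 CPM of Mkx, and each was above the ungated value of its library. Ifitm5 cells held 16.3, 17.6 and 17.3 CPM of Mkx, below ungated cells in 3 of 3 libraries.

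Mkx was called higher in Hand2 cells (log2 fold change 0.72 ± 0.20, adjusted p = 0.0404 by edgeR), lower in Ifitm5 cells (-0.60 ± 0.20, adjusted p = 0.0455 by edgeR) and higher in Ibsp than in Ifitm5 cells (0.75 ± 0.20, adjusted p = 0.0356 by edgeR). In Rgs5 cells at P15, Mkx stood at 8.78 CPM (-1.68 ± 0.42, adjusted p = 0.041 by edgeR), the only one of the 6 genes called there, from 1 library and thus with no spread of its own. With gate thresholds at about 0.5 times, the Rgs5 difference was 0.04. All 4 of these Mkx calls were lost without P25 and without 8 weeks, where the adjusted p from edgeR lay between 0.103 and 0.427. Scx and Mkx, often named together as tendon factors, thus stood on opposite sides of the ungated level in Hand2 cells in 3 of 3 libraries. Together with Sox9, 3 of the 6 genes were called in the Hand2 gate, where edgeR called 11.6% of all genes.

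Tnmd, the marker of maturing tendon and ligament, had the highest level among Ibsp cells at P15. Ibsp cells held 469.5, 195 and 132 CPM of Tnmd at P15, P25 and 8 weeks. Ungated cells held 137, 177 and 49.6 CPM. Ibsp cells were above ungated cells in 3 of 3 libraries, but by little at P25, and the difference did not pass the test (log2 fold change 1.09 ± 0.51, adjusted p = 0.174 by edgeR). Hand2 cells held 36.8, 40.5 and 53.1 CPM of Tnmd, beside the 37.2 and 22.1 CPM of cells with at least 2 Ptprc UMIs at P15 and P25, which serve as background.

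Because the gate as a whole had missed the threshold, Ibsp cells were divided by Hand2 after the data were seen. Ibsp cells with at least 2 Hand2 UMIs numbered 43, 805 and 593 at P15, P25 and 8 weeks, and those with fewer 1319, 961 and 632. Without Hand2, Ibsp cells held 484, 292 and 213 CPM of Tnmd at P15, P25 and 8 weeks. With Hand2, they held 107, 88.9 and 61.6 CPM, less than the others in 3 of 3 libraries. Ibsp cells without Hand2 exceeded ungated cells (log2 fold change 1.5 ± 0.44, adjusted p = 0.0373 by edgeR), yet the adjusted p from edgeR was 0.309 without P15, 0.0559 without P25 and 0.0843 without 8 weeks. Since the division was made in view of the missed threshold, this p is a description of a chosen subset. The contrast of both divisions of the Ibsp gate did not pass (log2 fold change 1.94 ± 0.46, adjusted p = 0.0548 by edgeR).

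Of the 6 genes, 3 were called between Ibsp cells without Hand2 and ungated cells, namely Tnmd and Acan as higher and Sox9 as lower, and edgeR called 18.9% of all genes there. Scx, called lower in the Ibsp gate as a whole, was not called there. It stood at 2.94, 9.31 and 11.1 CPM against 6.59, 13.8 and 13.8 CPM in ungated cells, still below in 3 of 3 libraries. Between Ibsp cells without and with Hand2, 2 of 6 were called against 2.47% of all genes. Scx was higher without Hand2 (2.94, 9.31 and 11.1 CPM against 2.31, 1.66 and 1.09 CPM, log2 fold change 2.56 ± 0.50, adjusted p = 0.0222 by edgeR), although the P15 sum with Hand2 rests on 2 UMIs. Mkx was lower without Hand2 (20.8, 31.2 and 31.2 CPM against 37.0, 50.05 and 50.1 CPM, log2 fold change -0.72 ± 0.16, adjusted p = 0.0335 by edgeR). Both calls were lost without P25 and without 8 weeks, where the adjusted p from edgeR lay between 0.208 and 0.308. Cells with Hand2 thus had the lower Scx and the higher Mkx inside the Ibsp gate and in the Hand2 gate.

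Within the Ifitm5 gate, Tnmd was found with Ibsp. The whole Ifitm5 class held 192, 76.0 and 161 CPM of Tnmd at P15, P25 and 8 weeks, and did not differ beyond its spread from ungated cells (log2 fold change 0.50 ± 0.52, adjusted p = 0.516 by edgeR). Those Ifitm5 cells that had at least 20 Ibsp UMIs held 279, 90.6 and 187 CPM of Tnmd, whereas those with fewer held 18.7, 25.4 and 11.3 CPM, at 8 weeks in 27 cells. In cells that pass exactly 1 gate, which leaves out the Ifitm5 cells with Ibsp, the Ifitm5 difference of Tnmd turned to -2.33 (adjusted p = 0.0104 by edgeR). Without the 8-week library it was -0.17.

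Acan, the cartilage proteoglycan, was low and lay above the ungated level in Ibsp and Ifitm5 cells. Ungated cells held 10.5, 8.94 and 3.53 CPM of Acan at P15, P25 and 8 weeks. Ifitm5 cells held 12.9, 25.9 and 42.3 CPM and Ibsp cells 22.6, 19.9 and 13.9 CPM, each above the ungated value of its library. Acan was called higher in Ifitm5 cells (log2 fold change 2.16 ± 0.63, adjusted p = 0.0299 by edgeR), with an adjusted p from edgeR of 0.173 without P25 and 0.188 without 8 weeks. In cells that pass exactly 1 gate, the difference was -0.82, and Ifitm5 cells with under 20 Ibsp UMIs held 2.97, 3.57 and 13.6 CPM of Acan. With Sox9 and Mkx, 3 of 6 genes were called in the Ifitm5 gate, where edgeR called 30.2% of all genes.

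In Ibsp cells as a whole, Acan did not pass (log2 fold change 1.38 ± 0.59, adjusted p = 0.141 by edgeR). Without Hand2, the Ibsp cells held 23.4, 34.4 and 22.4 CPM of Acan (log2 fold change 1.88 ± 0.59, adjusted p = 0.0486 by edgeR), with an adjusted p from edgeR of 0.256 without P25 and 0.191 without 8 weeks. Pappa2 cells had the highest Acan at P15, with 48.0 CPM, but 7.50 CPM at P25, and the difference did not pass (log2 fold change 2.10 ± 0.74, adjusted p = 0.181 by edgeR, -0.03 without P15). Acan and Sox9, both genes of cartilage, had opposite signs in the Ifitm5 and Ibsp gates, though Acan was not called in the Ibsp gate. In cells that pass exactly 1 gate, the Ifitm5 difference of Acan was negative, as given above.

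Chad, the leucine-rich matrix protein, had a UMI in fewer mesenchymal cells than any other of the 6 genes, in 242, 212 and 130 at P15, P25 and 8 weeks. By level it was the lowest over all mesenchymal cells at P15 and P25, but not at 8 weeks (9.14 CPM, against 8.92 CPM of Acan). Ungated cells held 2.0, 6.85 and 12.9 CPM at P15, P25 and 8 weeks, and Ibsp cells 3.49, 2.08 and 2.75 CPM. Ibsp cells were above ungated cells at P15 and below them at P25 and 8 weeks, and the difference did not pass (log2 fold change -0.95 ± 0.61, adjusted p = 0.322 by edgeR). Rgs5 cells held 0 UMIs of Chad at P15. Of the 6 genes, only Scx and Sox9 were called between Ibsp and ungated cells, where edgeR called 18.5% of all genes.

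Genes of wider lists were read in the same classes. Of 35 tendon and ligament genes tested, 2 were higher and 11 lower in Ibsp cells, with a median log2 fold change of -0.61 over the list and 0.02 over all genes. In Ifitm5 cells, 4 were higher and 16 lower (medians -0.66 and -0.03), and in Hand2 cells 4 were higher and 10 lower (medians -0.97 and -0.01). These were 37.1%, 57.1% and 40% of the tested list in the Ibsp, Ifitm5 and Hand2 gates. Of all genes, edgeR called 18.5%, 30.2% and 11.6% there. Kera, which encodes the small proteoglycan keratocan, was lower in Ibsp (-4.43), Ifitm5 (-4.27) and Hand2 cells (-3.99). Prg4, which encodes lubricin, was lower in Ibsp (-4.62) and Ifitm5 cells (-5.40). Eya1 and Six2, a transcription factor that acts with Eya proteins, were lower in Hand2 cells (-3.16 and -3.64), as Scx was. Postn and Aspn, markers of the periodontal ligament, went the other way in sum. They stood at 2685, 5919 and 6294 CPM in Hand2 cells and at 1430, 3586 and 1879 CPM in ungated cells (P15, P25, 8 weeks). This sum was not tested.

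Of 24 cartilage genes, 1 was higher and 9 lower in Ibsp cells, with a median of -1.23. In Ifitm5 cells, 5 were higher and 8 lower (median -1.01), and in Hand2 cells 1 was higher and 4 lower (median -0.73). These were 41.7%, 54.2% and 20.8% of the tested list in the Ibsp, Ifitm5 and Hand2 gates, against 18.5%, 30.2% and 11.6% of all genes. Col9a2, a collagen IX chain, was lower in Ibsp (-2.43) and Hand2 cells (-2.69), whereas Ihh (4.53), which encodes the signal Indian hedgehog, was higher in Ifitm5 cells, as was Fibin in Ibsp (2.55) and Ifitm5 cells (2.59). Of 19 genes related to the 6 by family, the 6 included where they belong, none was higher and 6 were lower in both Ibsp and Hand2 cells, and 4 were higher and 5 lower in Ifitm5 cells. The calls made up 31.6% of these genes in the Ibsp and Hand2 gates and 47.4% in the Ifitm5 gate. The Tnmd relative Itm2a was lower in Ifitm5 cells (-1.91), and the Acan relative Vcan, which encodes versican, was lower in Hand2 cells (-1.60), while Acan itself was not called there.

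Chad UMIs lay in few cells. The 1% of mesenchymal cells with the most Chad UMIs held 62.0%, 78.2% and 79.4% of all Chad UMIs at P15, P25 and 8 weeks. Such a share is high for any gene found in so few cells. A single cell reached 68 Chad UMIs at P25. Cells with at least 5 Chad UMIs numbered 7, 22 and 28 at P15, P25 and 8 weeks. Under the stricter filter on keratin and endothelial genes, Chad in mesenchymal cells moved from 4.79 to 2.06 CPM at P25, and was 2.87 CPM at P15 and 9.21 CPM at 8 weeks.

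To ask which of the 6 genes are found in the same cells, each mesenchymal cell was thinned to 3000 UMIs, which left out shallower cells and kept 9071, 7188 and 4110. Tnmd had a UMI in 27.7%, 20.5% and 12.8% of cells at P15, P25 and 8 weeks, and Sox9 in 19.2%, 14.9% and 21.3%. Mkx was found in 5.75%, 9.75% and 10.5%, Acan in 3.32%, 2.98% and 2.12%, Scx in 1.56%, 2.14% and 2.34%, and Chad in 0.683%, 0.765% and 1.56%. Without thinning, the shares at P15 ran from 2.27% for Chad to 42.6% for Tnmd.

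Immune cells, with at least 2 Ptprc UMIs and a median of 11072 UMIs at P15 and 16455 UMIs at P25, gave the background. At P15, they had a UMI of Tnmd in 5.57%, Sox9 in 2.91%, Mkx in 1.14%, Acan in 1.01%, Scx in 0.380% and Chad in 0.253% of 790 cells. At P25, the shares were 3.17%, 3.62%, 2.26%, 1.81%, 0 and 0.452% of 221 cells, where a count of 0 allows up to 1.36%. Acan at P25 (interval of the immune share 0.495% to 4.57%) and Chad at P15 and P25 were therefore not separated from this background by their shares. By summed UMIs, Acan at P25 was 13.7 CPM in mesenchymal and 5.71 CPM (3.66 to 8.49) in immune cells. Chad was 2.38 against 1.11 CPM (0.593 to 1.90) at P15 and 4.79 against 1.665 CPM (0.669 to 3.43) at P25. At 8 weeks only 16 immune cells remained, with a UMI of none of the 6 genes, which allows up to 18.8%.

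Tnmd and Sox9 were found apart. Of Tnmd-positive cells, 7.33%, 7.75% and 8.16% had Sox9 at P15, P25 and 8 weeks. Of Tnmd-negative cells, 23.7%, 16.7% and 23.3% had it. Seen from Sox9, 10.6%, 10.7% and 4.90% of positive cells had Tnmd, against 31.7%, 22.2% and 15% of negative cells. The intervals did not overlap in any of the 3 libraries in either direction. Within ungated cells alone, Sox9 was in 11.1%, 10.6% and 16.1% of Tnmd-positive and in 28.5%, 22.7% and 33.0% of Tnmd-negative cells, again without overlap of the intervals. Within Ibsp cells, the shares were 2.70%, 4.22% and 3.69% against 6.64%, 6.59% and 5.22%, and the intervals overlapped at P25 and 8 weeks.

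**Figure D3:**
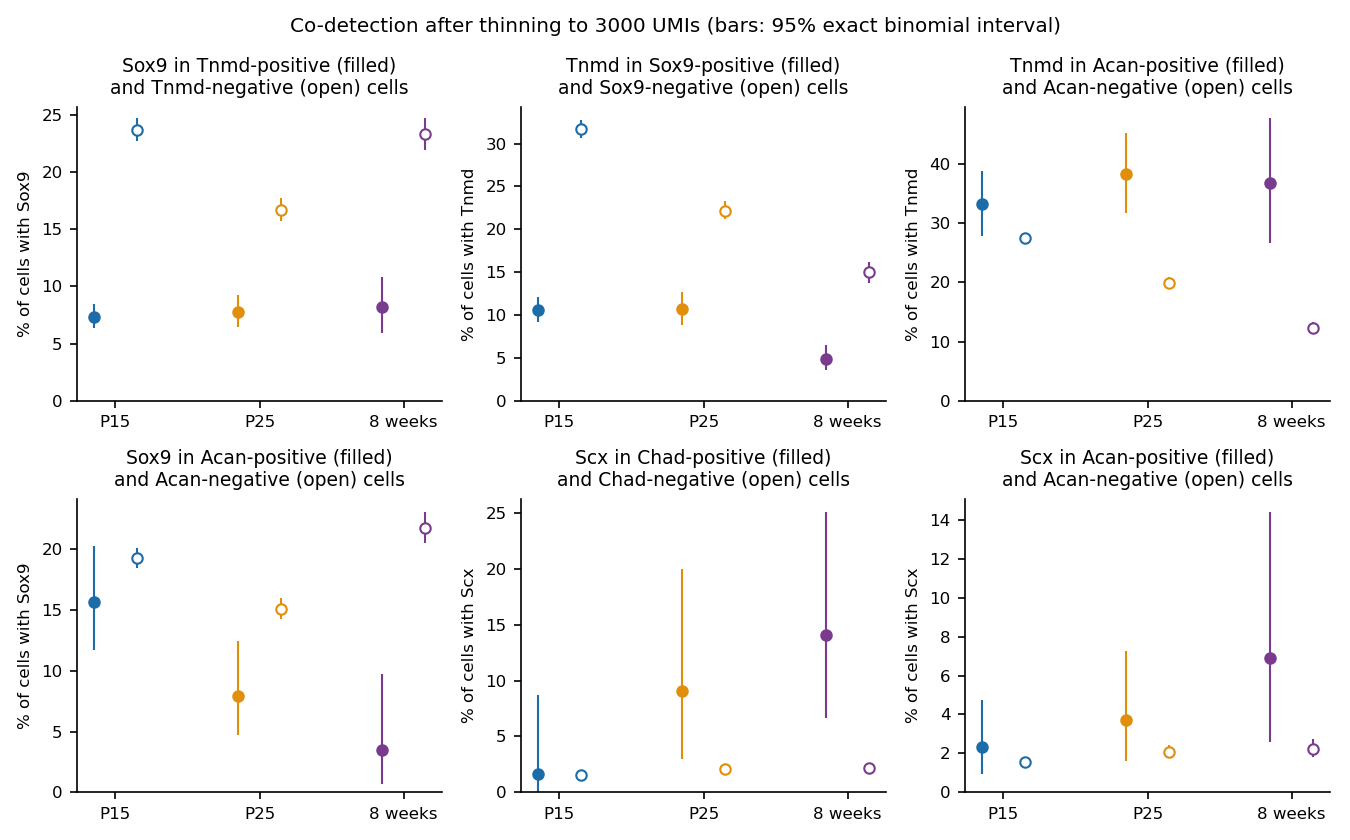
Share of cells (y axis, %) with a UMI of the second gene among cells positive (filled) and negative (open) for the first, by library (x axis), after thinning to 3000 UMIs, with 95% exact binomial intervals. Sox9 is in 7.33% to 8.16% of Tnmd-positive cells and in 16.7% to 23.7% of Tnmd-negative cells.

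All UMIs of the positive and of the negative cells were then summed by library, which gave 6 sums for each splitting gene, and the other genes were tested with edgeR with the library as a block. The splitting gene itself is not read. Without the library block, every call of the 6 genes in these splits was lost, with adjusted p of at least 0.148 from edgeR. The positive and negative cells of the Sox9 split held 64.0 and 218 CPM of Tnmd (P15), 73.6 and 174 CPM (P25), and 27.4 and 94.0 CPM (8 weeks). Tnmd was lower in Sox9-positive cells (log2 fold change -1.63 ± 0.14, adjusted p = 0.00851 by edgeR), with any 1 library left out too. The opposite split gave 39.2, 39.8 and 44.1 CPM of Sox9 in Tnmd-positive cells and 134, 86.1 and 129 CPM in negative ones (log2 fold change -1.44 ± 0.13, adjusted p = 0.01 by edgeR), and without the 8-week library the adjusted p was 0.060. The epithelial genes summed to 196, 107 and 27.1 CPM in Tnmd-positive and 630.1, 563 and 153 CPM in Tnmd-negative cells, and Epcam cells at P15 held 96.5 CPM of Sox9. In cells that also lacked keratin and endothelial UMIs, the difference was -1.69 in both directions of the split (adjusted p = 0.000744 for Sox9 and 0.00114 for Tnmd by edgeR).

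Tnmd was the only one of the other 5 genes called in the Sox9 split, where edgeR called 10.7% of all genes. Acan pointed the same way without passing (11.3, 8.33 and 2.20 CPM in positive cells against 16.0, 14.6 and 10.6 CPM, log2 fold change -1.01 ± 0.30, adjusted p = 0.112 by edgeR). In the Tnmd split, where 9.90% of all genes were called, Sox9 was lower and Chad higher. Most Sox9-positive cells were ungated, 91.2%, 83.0% and 90.2% at P15, P25 and 8 weeks, where ungated cells made up 69.9%, 60.6% and 60.8% of all thinned cells. The dissociation stress genes summed to 7107, 10662 and 15392 CPM in Sox9-positive and 6079, 6355 and 8577 CPM in Sox9-negative cells, and their part in the Sox9 split was not tested.

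Wider lists of 28 cartilage and 37 tendon and ligament genes were read in these splits. They hold the 6 genes too, and only the splitting gene was left out. Of all genes, edgeR called 10.7% in the Sox9 split and 9.90% in the Tnmd split. In Sox9-positive cells, 8 of 22 tested cartilage genes were higher and 3 lower, with a median log2 fold change of 0.39 over the list and 0.004 over all genes. Col9a1, a collagen IX chain of cartilage, stood at 31.2, 19.9 and 10.3 CPM in positive and 10.5, 5.68 and 2.09 CPM in negative cells (log2 fold change 1.78, adjusted p = 0.00748 by edgeR). Lect1, which encodes the Tnmd relative chondromodulin, was also higher (2.24), as were Col9a3 (1.62) and Sox5 (1.48), the partner of Sox9. Col11a2 (-1.65) and Fibin (-1.60) were lower.

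Of the tendon and ligament list, 2 of 34 were higher and 7 lower in Sox9-positive cells, with a median of 0.02. Tnmd itself is among the 7. Tnc, which encodes the matrix protein tenascin C, was higher (1.03), and the fibrillar collagen gene Col1a1 (-0.83), Col12a1 (-0.97) and Postn (-0.91), which encodes periostin, were lower. Tnmd-positive cells had the reverse for Col12a1 (0.94). In those cells, 10 of 34 tendon and ligament genes were higher and 2 lower, with a median of 0.27. The largest changes were a lower Col14a1 (-2.50), a fibril-associated collagen gene, and a higher Thbs4 (1.39), which encodes a thrombospondin of tendon matrix. Thbs4 was 1783 and 634 CPM in positive and negative cells (P15), 1224 and 490.0 CPM (P25), and 2777 and 1181 CPM (8 weeks). Of 24 cartilage genes, 2 were higher and 5 lower in Tnmd-positive cells, Sox5 (-1.04) and Col9a3 (-1.22) among the lower. Chad is among the 2 and Sox9 among the 5, as reported above.

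Acan-positive cells had more Scx, while their differences in Tnmd and Sox9 did not pass the test. Of Acan-positive cells, 33.2%, 38.3% and 36.8% had Tnmd at P15, P25 and 8 weeks, against 27.5%, 19.9% and 12.3% of Acan-negative cells. The summed level of Tnmd was 211 against 188 CPM (P15), 272 against 155 CPM (P25), and 258 against 77.3 CPM (8 weeks), which did not pass the test over libraries (log2 fold change 0.90 ± 0.41, adjusted p = 0.521 by edgeR). Sox9 stood at 63.7, 37.4 and 33.1 CPM in Acan-positive and 108, 77.4 and 119.6 CPM in Acan-negative cells, lower in 3 of 3 libraries and also not past the threshold (-1.03 ± 0.21, adjusted p = 0.0902 by edgeR). At P15, P25 and 8 weeks, 24.58%, 35.05% and 44.83% of Acan-positive cells were Ibsp cells, against 14.96%, 24.33% and 28.32% of all thinned cells. Within Ibsp cells, Tnmd was in 54.05%, 61.33% and 46.15% of Acan-positive and 66.25%, 25.57% and 20.09% of Acan-negative cells. In ungated cells, it was in 30.67%, 25.61% and 7.69% against 20.09%, 19.55% and 7.72%. Intervals overlapped in Ibsp cells at P15 and in ungated cells at P25 and 8 weeks. These shares were not tested.

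Scx was the 1 gene of the other 5 called in the Acan split, where 6.1% of all genes were called. It stood at 10.3, 25.8 and 15.5 CPM in Acan-positive and 5.95, 11.5 and 11.7 CPM in Acan-negative cells (log2 fold change 0.94 ± 0.17, adjusted p = 0.00138 by edgeR). Without the P25 library the difference was 0.69 with an adjusted p of 0.23, and in cells without keratin and endothelial UMIs it was 0.12 with an adjusted p of 0.966, both from edgeR. The opposite split gave 32.8 and 14.9 CPM of Acan in Scx-positive and Scx-negative cells (P15), 26.1 and 13.4 CPM (P25), and 16.0 and 8.83 CPM (8 weeks) (1.07 ± 0.16, adjusted p = 0.0279 by edgeR). Under the same stricter filter, this was 0.87 with an adjusted p of 0.466 from edgeR, but too few Scx-positive cells remained at P15, so that this fit had 4 sums from 2 libraries. Cell by cell after thinning, Scx was in 2.33%, 3.74% and 6.90% of Acan-positive cells at P15, P25 and 8 weeks. Of Acan-negative cells, 1.54%, 2.09% and 2.24% had it, and the intervals overlapped in all 3 libraries. In Acan-positive cells, Col14a1 was nearly absent (1.62, 0 and 1.10 CPM against 38.0, 11.8 and 60.5 CPM), and Thbs4 (1.02), Eya1 (1.16), a transcriptional cofactor, and Fgfr3 (1.03), a growth factor receptor of cartilage, were higher.

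Acan was the only one of the other 5 genes called in the Scx split, in which edgeR called 0.535% of all genes. Cilp2, a cartilage intermediate layer protein gene, stood out there with 31.0 and 2.43 CPM in Scx-positive and Scx-negative cells (P15), 90.5 and 3.73 CPM (P25), and 93.3 and 4.37 CPM (8 weeks) (log2 fold change 4.33, adjusted p = 0.000511 by edgeR). Aspn (0.91) and Eya1 (1.02) were higher too, and of 34 tendon and ligament genes 4 were higher and none lower, with a median of 0.32. The same 4 epithelial genes summed to 1350 CPM in Scx-positive and 493 CPM in Scx-negative cells at P15, with Epcam again at 0. At P25 the sums were 478 and 465 CPM, and at 8 weeks 22.2 and 139 CPM, so they went with Scx at P15 alone, and their part in the split was not tested.

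Tnmd was 168, 200.2 and 123 CPM in Scx-positive and 189, 158 and 80.1 CPM in Scx-negative cells, lower in positive cells at P15 and higher at the other time points (log2 fold change 0.32 ± 0.18, adjusted p = 0.587 by edgeR). In the Mkx split, edgeR called 3.28% of all genes and none of the other 5. At an unadjusted p under 0.05, 2 of the 5 passed in edgeR and 1 in DESeq2, whose adjusted p called none. Tnmd stood at 207, 168 and 70.2 CPM in Mkx-positive and 188, 158 and 82.4 CPM in Mkx-negative cells.

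By summed UMIs, Chad-positive cells held more Scx, Tnmd and Sox9 than Chad-negative cells. They numbered 62, 55 and 64 at P15, P25 and 8 weeks, and held 27.4, 98.4 and 102 CPM of Scx at P15, P25 and 8 weeks. Chad-negative cells held 5.96, 11.4 and 10.5 CPM. Every positive value was above every negative value (log2 fold change 2.94 ± 0.21, adjusted p = 1.9e-10 by edgeR), and the call held with any 1 library left out. The standard error and the p rest in part on the spread of other genes and not on these 6 sums alone. The call was not met when cells were called positive by any UMI without thinning (2.17, adjusted p = 0.195 by edgeR). Cell by cell, Scx was detected after thinning in 1 of 62 Chad-positive cells (P15), 5 of 55 (P25) and 9 of 64 (8 weeks), so that at P15 the excess showed in the summed UMIs and not in the thinned share. In cells with at least 5 Chad UMIs, a group looked at after the data were seen, Scx reached 166, 155 and 193 CPM at P15, P25 and 8 weeks. These values rest on 15, 68 and 52 Scx UMIs in 7, 22 and 28 cells. Their intervals were 92.7 to 273, 120 to 196 and 144 to 253 CPM.

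**Figure D4:**
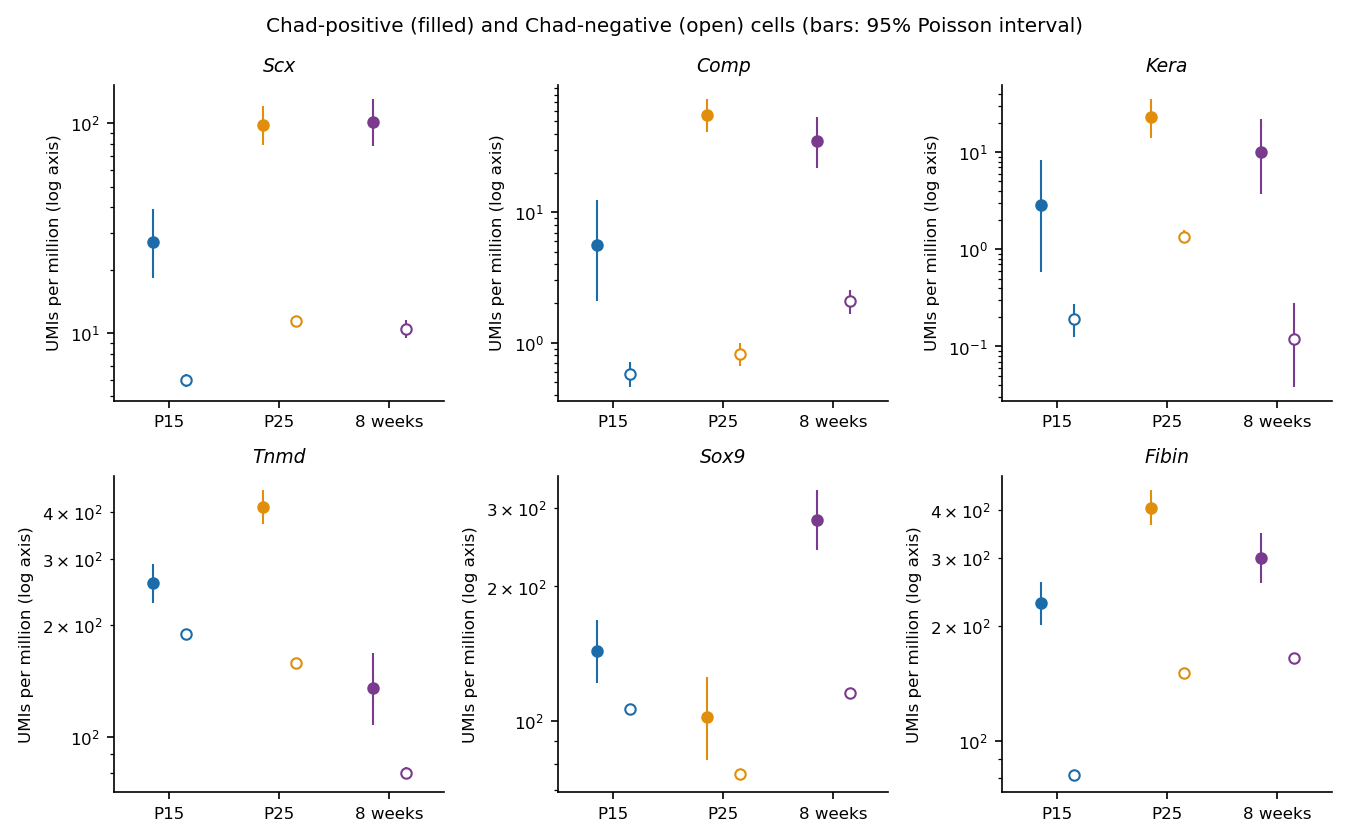
Level of the other genes (CPM, y axis) in Chad-positive and Chad-negative cells of each library (x axis and colours), with 95% Poisson intervals. Scx is 27.4, 98.4 and 102 CPM in positive cells and 5.96, 11.4 and 10.5 CPM in negative cells at P15, P25 and 8 weeks.

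Tnmd and Sox9, which were found apart in all mesenchymal cells, were both higher in Chad-positive cells by summed UMIs. Tnmd stood at 258 against 188 CPM (P15), 412 against 157 CPM (P25), and 135 against 80.4 CPM (8 weeks) (log2 fold change 0.90 ± 0.16, adjusted p = 0.0103 by edgeR, held with any 1 library left out). Sox9 stood at 143 against 106 CPM, 102 against 76.0 CPM and 282 against 115 CPM (0.75 ± 0.17, adjusted p = 0.0281 by edgeR), with an adjusted p of 0.10 without the 8-week library. Thus 3 of the other 5 genes were called in the Chad split, where edgeR called 2.85% of all genes. Seen from Tnmd, Chad was higher too (3.70, 9.20 and 14.1 CPM against 1.86, 3.62 and 8.51 CPM, log2 fold change 1.08 ± 0.16, adjusted p = 0.0202 by edgeR), though not past the threshold without P25 (0.060) or without 8 weeks (0.050). Seen from Sox9, Chad was not called (1.498, 8.543 and 16.9 CPM against 2.595, 4.167 and 7.444 CPM), and was lower at P15. After thinning, Sox9 was in 12.9%, 30.91% and 39.06% of Chad-positive and 19.2%, 14.75% and 21.06% of Chad-negative cells. Tnmd was in 37.1%, 30.91% and 14.06% against 27.61%, 20.4% and 12.8%. Intervals overlapped for Tnmd in every library and for Sox9 at P15.

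In Scx-positive cells, Chad stood at 4.69, 58.1 and 66.6 CPM at P15, P25 and 8 weeks, against 2.35, 3.38 and 7.70 CPM. The size varied so much over libraries that edgeR did not call it (3.17 ± 0.72, adjusted p = 0.304), while the DESeq2 Wald test did (adjusted p = 6.5e-06). Acan did not differ beyond its spread between Chad-positive and Chad-negative cells (34.0, 20.6 and 1.67 CPM against 15.03, 13.7 and 9.13 CPM, log2 fold change 0.59 ± 0.39, adjusted p = 0.689 by edgeR), and the 8-week value rests on 1 UMI.

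Genes of both lists were called in the Chad split. Of 34 tendon and ligament genes tested, 10 were higher and 2 lower in Chad-positive cells, with a median log2 fold change of 0.35 over the list and -0.03 over all genes, and of 22 cartilage genes 5 were higher and none lower, with a median of 0.85. Scx and Tnmd are among the 10 and Sox9 is among the 5, so these counts in part repeat results given above. Of all genes, edgeR called 2.85% in this split. Comp (4.69), a pentameric matrix protein of cartilage and tendon that is in both lists, and Kera (4.58), which encodes keratocan, led. Of 15 genes related to the 6 by family, the 6 included where they belong, 6 were higher and none lower. They were Scx, Tnmd and Sox9 themselves, Lect1 (3.6), Chadl (0.95), the relative of Chad, and Itm2a (0.90). Fibin (1.29) was also higher, and Col14a1 (-2.81) and Mfap5 (-2.43), a microfibril gene, were lower. Angptl7 (6.82), Ptx4 (6.14), Wnt16 (4.87) and Lgr5 (3.41) are outside the lists and were picked after their values were seen. Of Chad-positive cells, 59.7%, 74.5% and 82.8% were ungated at P15, P25 and 8 weeks, and 21.0% were in the Pappa2 gate at P15. Epithelial genes were not higher in them, at 119, 88.1 and 30.1 CPM in sum against 508, 468 and 138 CPM, with Epcam at 0 by the choice of cells. Dissociation stress genes summed to 8100, 8690 and 14892 CPM against 6260, 6980 and 9814 CPM, and their part was not tested. With keratin and endothelial UMIs excluded, too few Chad-positive cells remained in a library for the fit.

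With a single library for each age, time points were compared by summed UMIs without a test, and the intervals cover counting error only. Over all mesenchymal cells, 8 weeks held 3.84 times the Chad level of P15 (interval 3.33 to 4.45), 1.96 times the Scx level (1.75 to 2.18) and 1.58 times the Mkx level (1.49 to 1.68). In cells that also lacked keratin and endothelial UMIs, Scx stood at 3.06 CPM (P15) and 12.6 CPM (8 weeks), farther apart than in all mesenchymal cells. That filter kept 1345 of 10667 cells at P15 and 3824 of 5061 at 8 weeks, so these subsets are unlike. Cells with at least 2 Epcam UMIs held 15.6 CPM at P15, and the part of epithelial RNA in the Scx ratio was not tested. In all mesenchymal cells, Tnmd was at 0.426 of its P15 level (0.411 to 0.441) and Acan at 0.593 (0.531 to 0.660). Sox9 had a ratio of 1.12 (1.08 to 1.15). Among genes with at least 10 CPM in either library, 3.53% were over 2-fold higher and 3.11% over 2-fold lower at 8 weeks than at P15, and for P25 against P15 these were 3.01% and 2.88%. Of the 6 genes, Tnmd was over 2-fold lower at 8 weeks and met that minimum, whereas Chad, which was over 2-fold higher, stayed under it.

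The ratio between time points was not on the same side of 1 in all classes. From P15 to P25, Tnmd had a ratio of 1.29 in ungated cells (interval 1.26 to 1.32) and was at 0.416 of its P15 level (0.402 to 0.429) in Ibsp cells. By 8 weeks it was at 0.362 in ungated and 0.281 in Ibsp cells. Chad at 8 weeks was 6.46 times its P15 level in ungated cells (5.41 to 7.73) and 0.787 times in Ibsp cells, with an interval from 0.508 to 1.20. Acan at 8 weeks was 3.28 times its P15 level in Ifitm5 cells (2.54 to 4.21), 0.336 times in ungated cells (0.269 to 0.416) and 0.617 times in Ibsp cells (0.515 to 0.736). Sox9 was at 0.549 of its P15 level in Ifitm5 cells (0.405 to 0.732) and 1.26 times in ungated cells (1.22 to 1.30). In Ibsp cells, 2.99% of genes were over 2-fold higher and 2.71% over 2-fold lower at P25 than at P15, and 2.31% and 3.30% at 8 weeks. The make-up of the Ibsp gate differed as well. Cells with Hand2 were 43 of 1362 at P15 and 593 of 1225 at 8 weeks, and held less Tnmd than the others at every time point. Ibsp cells without Hand2 held 0.603 (P25) and 0.440 (8 weeks) of their P15 level of Tnmd. For Ibsp cells with Hand2 these ratios were 0.828 (interval 0.670 to 1.03) and 0.573 (0.456 to 0.727). The part of this make-up in the Tnmd ratios of the gate was not tested. In the Ifitm5 gate, cells with at least 20 Ibsp UMIs were 335 of 489 at P15 and 177 of 204 at 8 weeks. They held 17.9 and 47.2 CPM of Acan, against 2.97 and 13.6 CPM in those with fewer. The gates are fixed UMI counts, and Ifitm5 cells had a median of 18166 UMIs at P15 and 13566.5 UMIs at 8 weeks. The part of make-up and depth in the Acan ratio was not tested. Software version and gene reference of the P25 library cannot be told apart from its age.

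**Figure D5:**
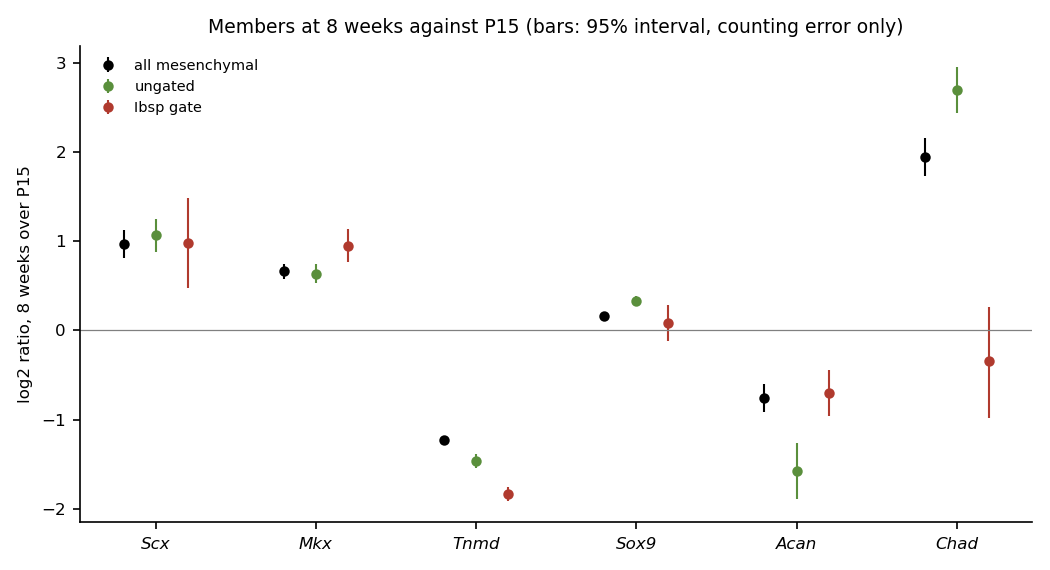
Log2 ratio of each gene at 8 weeks over P15 (y axis) in all mesenchymal, ungated and Ibsp cells (colours), with 95% intervals from counting error only and no replicate. Tnmd lies below 0 in all 3 sets of cells, and Chad lies above 0 in all mesenchymal and ungated cells (ratios 3.84 and 6.46) but not in Ibsp cells (0.787).

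Across the 15 sums of library and class, the genes whose log2(CPM + 1) followed each of the 6 most closely were taken from 9165 genes with at least 10 CPM in 3 or more sums. For Sox9 these were Aig1 (Pearson r = 0.963), Kcnj2 (0.917) and Pcdh10 (0.906). For Mkx they were Tpbg, Tnn and Ak1 (0.915, 0.915 and 0.912), for Scx Crtap, Pcolce and Slit3 (0.908, 0.906 and 0.879), for Tnmd Ptgs1, Spon1 and Kcng2 (0.823, 0.795 and 0.794), and for Acan Col13a1, Ppef1 and Ptges3l (0.867, 0.812 and 0.803). Chad was below 10 CPM in most sums and is left out. Among the 6 genes, r was highest for Acan and Tnmd (0.607) and lowest for Acan and Sox9 (-0.65). The sums share libraries and differ in depth, so these values describe likeness and carry no p.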

How the data were processed

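Pthrp-mCherry+ cells of mouse molars were profiled with 10x Chromium 3' chemistry, 1 library per time point. The authors made the deposited values with Cell Ranger, as whole UMI counts per gene and cell without normalization. The file headers give version 6.1.2 for P15 and 8 weeks and 6.0.1 for P25, and the submitters' processing notes give 6.1.2 and mm10. Genes were joined by identifier, and 0 columns went unused. No doublet caller was run, and an alternative left out the 6% of cells with the most UMIs. Counts were summed by library and class (at least 20 cells) or by positive and negative cells after thinning to 3000 UMIs, filtered with filterByExpr, scaled by TMM and tested with edgeR 4.0.16 (R 4.3.3), with DESeq2 1.42.0 as an alternative. The code was tested on simulated data. Intervals are exact (95%) and cover counting error only, and a count of 0 allows 3 counts. The 6 genes, the gates, the tests and the lists (tendon and ligament, cartilage, families of the 6 genes, markers) were chosen with earlier results of these data known. Named genes were the 6 genes, the 3 closest to each in pattern, and list genes among the 5 called genes of largest change in a comparison, with exceptions picked after their values were seen and named as such. The division of the Ibsp gate by Hand2, the bins of Ibsp UMIs, the division of the Ifitm5 gate by Ibsp, the cells with at least 5 UMIs of a gene and the scaling to total counts were added after the data were seen.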

Additional observations from a re-analysis of the deposited data

Results flagged for a closer look

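Chad differed in direction between time points in the Ibsp gate. The ratio of its level in Ibsp cells to that in ungated cells was 1.75 at P15 and 0.213 at 8 weeks, each from 1 library. The difference between time points was not tested, and 18 pairs of a gate and a gene were looked at for such a turn. Scx was found in cells outside the comparisons, at 15.6 CPM in cells of the P15 library with at least 2 Epcam UMIs.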

How the results depend on the processing

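Of the values of the 6 genes in gated cells under an alternative, 226 kept direction and side of the threshold, 66 lost and 5 gained the call, and 5 reversed. In the splits, 148 kept both, 20 lost and 23 gained the call. In cells passing exactly 1 gate, the Ifitm5 difference was -0.82 for Acan and -2.33 for Tnmd. With 1 library left out, the Ifitm5 difference of Tnmd ranged from -0.17 (without 8 weeks) to 1.30 (without P25), and that of Acan in Pappa2 cells from -0.027 (without P15) to 2.72 (without P25). With gate thresholds at about 0.5 times, Mkx in Rgs5 cells was 0.037. The causes were not tested.

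The library is the block, and it pairs each class with the ungated cells of its own library. With no library block, calls went from 2570 to 573 for Ibsp, 4201 to 1920 for Ifitm5, 1609 to 329 for Hand2, 291 to 0 for Pappa2, 835 to 431 for Rgs5, 1819 to 569 for Ibsp against Ifitm5, 2596 to 622 for Ibsp without Hand2 against ungated cells and 340 to 59 against Ibsp with Hand2. In the splits, they went from 1458 to 5 (Sox9), 1357 to 0 (Tnmd), 805 to 1 (Acan), 373 to 3 (Chad), 437 to 0 (Mkx) and 71 to 0 (Scx). Where edgeR called 0, an unadjusted p under 0.05 was met by 1423 genes for Pappa2, 1182 for Tnmd, 289 for Mkx and 586 for Scx, and no other tool was run without the block.

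With 1 library left out, calls ranged from 108 to 3413 for Ibsp, 622 to 4378 for Ifitm5, 27 to 2657 for Hand2, 0 to 95 for Pappa2 (the 0 without P25, with 1538 at an unadjusted p under 0.05), 197 to 580 for Rgs5, 30 to 2821 for Ibsp against Ifitm5, 652 to 2652 for Ibsp without Hand2 and 12 to 349 against Ibsp with Hand2. In the splits, they ranged from 274 to 2784 (Sox9), 462 to 1277 (Tnmd), 563 to 1364 (Acan), 296 to 721 (Chad), 270 to 409 (Mkx) and 196 to 549 (Scx). In the gates the lowest count was the one without P25.

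With Pecam1, Cdh5, Krt14 and Krt5 also at 0, calls were 925 for Hand2, 440 for Rgs5, 166 for Pappa2, 253 for Acan, 162 for Mkx and 151 for Scx (4 sums in place of 6), the gates had 13 sums in place of 15, and the Chad split could not be fitted. DESeq2 gave 489 for Acan, 213 for Scx, 825 for Pappa2 and 929 between the divisions of the Ibsp gate. Without thinning, calls were 422 (Acan), 118 (Chad), 918 (Mkx), 282 (Scx) and 2188 (Sox9). With no low-count filter they were 905 (Mkx) and 200 (Scx). Lower thresholds gave 409 for Hand2 and 72 for Rgs5, and for Pappa2 doubled thresholds gave 531 and thresholds relative to the depth of the cell 692. Scaling to total counts, added after the data were seen, moved the median of all genes to -0.29 for Ifitm5 and to 0.23 for Ibsp against Ifitm5. Genes called higher and lower went from 1967 and 2234 to 855 and 3888 for Ifitm5, from 823 and 996 to 1806 and 595 for Ibsp against Ifitm5, from 930 and 1640 to 551 and 1798 for Ibsp, from 1039 and 1557 to 666 and 1785 for Ibsp without Hand2, from 678 and 780 to 996 and 724 for Sox9, from 345 and 460 to 286 and 659 for Acan, and from 149 and 288 to 199 and 226 for Mkx.

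Of the levels over mesenchymal cells, 34 stayed and 20 moved beyond their interval. The stricter filter gave 217.5 CPM of Tnmd, 24.96 of Mkx, 3.06 of Scx, 2.87 of Chad and 95.3 of Sox9 at P15, 12.7 CPM of Acan, 2.06 of Chad, 10.1 of Scx and 70.0 of Sox9 at P25, and 114 CPM of Sox9 at 8 weeks. Without the 6% of cells with the most UMIs, Sox9 was 108, 77.5 and 125.5 CPM, Tnmd 190.1, 163.5 and 83.2 CPM, Acan 14.4 CPM at P15, and Scx 11.3 CPM at P25 and 10.4 CPM at 8 weeks. Dropping cells under 500 genes or over 20% mitochondrial UMIs gave 189.6 CPM of Tnmd at P15. The 8-week library had the fewest UMIs, and sums of Scx and Chad in small classes rest on few UMIs. With 1 library per age, age and library cannot be told apart.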
